A study of Mus musculus with 8 samples.

Results

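Npy2r, Plekhb1 and Scn2b are 3 of 21887 protein-coding mouse genes, chosen by where H3K27ac peaks were found in small intestinal crypts of fed and fasted mice. Each had an H3K27ac peak within 1 kb of one of its ends in all 4 Fast peak lists and in none of the 4 Fed lists. Only 21 genes, or 0.0959% of all, had that pattern, and these 3 were among the 4 with the highest median peak score in the Fast lists. Because the members were selected on that comparison, their H3K27ac values in Fast against Fed lists are given below as a description, with no test. Their H3K9ac values were not used in the choice. Tetracycline was not compared in it either. Asking for a peak in every Fast and no Fed list still fixes gene-end H3K27ac as equal with and without tetracycline.

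The mice were male C57BL/6J animals aged 9 weeks. They were either fed (Fed) or fasted for 24 h (Fast), and either received tetracycline, an antibiotic, for 21 days (+Tetra) or did not (-Tetra). Crypts, the pockets of the intestinal wall that hold its stem cells, were released with EDTA and brought to single cells with trypsin, and no sort or gate is named in the labels. Each of 8 samples (4 groups for each of 2 histone marks) had 2 peak lists, numbered 1 and 2 and written here as Fast 1 (-Tetra) and so on. The labels do not say that lists 1 and 2 came from different mice, so the spread between lists may be technical, and p-values measure only that spread.

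H3K27ac and H3K9ac are acetylations of histone H3. The first marks active promoters and enhancers, and the second is found mainly at active promoters. In CUT&Tag an antibody to the mark guides a transposase, so a peak is a stretch of DNA where cut fragments piled up. In a suspension of mixed cells, a mark gained in many cells and a larger share of cells that carry it cannot be told apart. A peak list also does not say which gene a peak serves, so every gene near each locus is listed with its own marks.

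Npy2r encodes a G protein-coupled receptor for neuropeptide Y and peptide YY, the second of which is a gut hormone. The receptor is known from neurons, including vagal sensory neurons that serve the gut. Plekhb1 encodes a membrane protein with a pleckstrin homology domain, a fold that binds phosphoinositides, and is known from photoreceptors and brain. Scn2b encodes an auxiliary subunit of voltage-gated sodium channels, which carry the rising phase of the action potential in nerve and muscle.

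The annotated start regions of the 3 genes were unlike in sequence. RefSeq (GRCm38.p6) gave 1 start site for Npy2r, 2 for Plekhb1 and 1 for Scn2b, and the 300 bases around each (250 before the start and 50 after it) are printed to show how each start compares with the marks below. Capitals mark CpG dinucleotides, the bases that are dense in CpG island promoters.
Npy2r, chr3:82548036-82548335, minus strand: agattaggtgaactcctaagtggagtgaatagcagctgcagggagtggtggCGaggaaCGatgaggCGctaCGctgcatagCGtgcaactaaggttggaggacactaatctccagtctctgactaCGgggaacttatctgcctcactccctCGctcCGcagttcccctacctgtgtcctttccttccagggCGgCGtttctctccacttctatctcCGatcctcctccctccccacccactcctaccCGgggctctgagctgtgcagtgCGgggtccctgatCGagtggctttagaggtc
Plekhb1, upstream start, chr7:100662345-100662644, minus strand: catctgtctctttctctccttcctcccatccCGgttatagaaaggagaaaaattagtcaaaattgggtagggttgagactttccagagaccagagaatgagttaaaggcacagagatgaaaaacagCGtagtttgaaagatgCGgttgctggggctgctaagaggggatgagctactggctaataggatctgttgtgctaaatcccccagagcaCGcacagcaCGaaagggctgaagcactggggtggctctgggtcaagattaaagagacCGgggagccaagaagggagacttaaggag
Plekhb1, inner start, chr7:100656916-100657215, minus strand: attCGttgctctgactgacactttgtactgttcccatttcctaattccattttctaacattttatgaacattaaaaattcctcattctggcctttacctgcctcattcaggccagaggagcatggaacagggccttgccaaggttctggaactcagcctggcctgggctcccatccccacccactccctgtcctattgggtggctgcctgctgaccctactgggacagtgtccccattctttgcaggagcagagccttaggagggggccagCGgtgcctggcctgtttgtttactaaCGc
Scn2b, chr9:45117626-45117925, plus strand: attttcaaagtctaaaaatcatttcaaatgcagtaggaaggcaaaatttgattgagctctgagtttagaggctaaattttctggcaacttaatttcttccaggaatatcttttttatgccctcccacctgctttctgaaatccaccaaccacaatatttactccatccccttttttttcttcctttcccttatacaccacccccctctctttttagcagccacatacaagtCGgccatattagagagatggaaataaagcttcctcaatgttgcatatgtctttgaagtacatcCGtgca
The Npy2r window held 14 CpG and was 57.7% G or C. It had more CpG than 63.7% of 32851 RefSeq promoters, whose median was 7. The upstream Plekhb1 window held 6 CpG and the inner one 3. The Scn2b window held 2 CpG, was 38.3% G or C, and had more CpG than 14.1% of promoters. Across all promoters with 10 or more CpG, 46.2% overlapped an H3K27ac peak in all 8 lists, against 3.9% of those with 1 to 4.

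Few lists had a peak over these start windows, apart from H3K9ac at Npy2r. The Npy2r window was overlapped by H3K27ac peaks in 2 Fast and 0 Fed lists, and by H3K9ac peaks in 3 Fast and 3 Fed lists. The upstream Plekhb1 window was overlapped by no H3K27ac peak and by H3K9ac in 1 Fast list, and the inner Plekhb1 window by neither mark in any list. The Scn2b window was overlapped by H3K27ac in 1 Fast list and by H3K9ac in none. Short motifs were searched on both strands. The CDX letters read on the other strand, CATAAA, share ATAAA with the TATA box. The inner Plekhb1 window held TGTTTAC (a forkhead motif, in 3.65% of all promoters) and TTTATG (a CDX motif, in 11.9%), and the Scn2b window held TTTATG. The TATA box TATAAA (13.6% of promoters), the E-box CACGTG (7.15%), the CRE TGACGTCA (1.79%), the nuclear receptor half-site AGGTCA (16.3%) and the REST half-site TTCAGCACC (0.371%) were in none of the 4 windows.

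In each locus, taken as the gene with 50 kb on either side, exactly 1 H3K27ac region was present in all 4 Fast and no Fed list. A region is a stretch of overlapping peaks merged over the 8 lists of a mark. Of 112301 H3K27ac regions, 449, or 0.400%, had that pattern. The rule that chose the members largely calls for such a region, so its presence at each locus is not a separate result. The 3 regions lay at different places relative to their genes: upstream of the gene at Npy2r, beyond the 3' end at Plekhb1, and just before the start site at Scn2b.

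**Figure D1:**
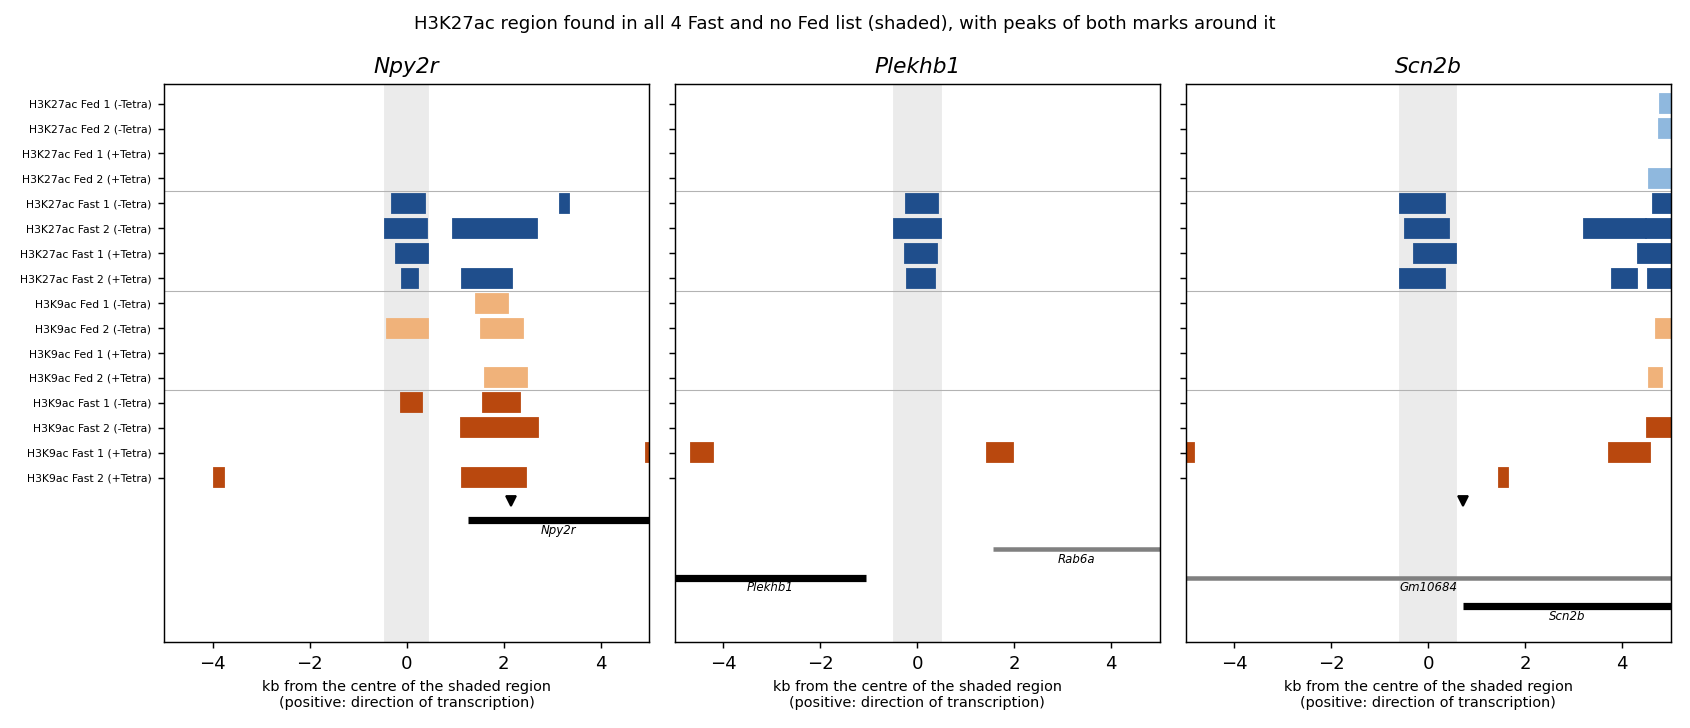
Peaks of both marks within 5 kb of the H3K27ac region found in all 4 Fast and no Fed list (shaded), at Npy2r, Plekhb1 and Scn2b; x, distance in kb from the centre of the region, positive in the direction of the gene's transcription; rows, the 16 peak lists; blue, H3K27ac; orange, H3K9ac; dark, Fast; light, Fed; bars below, genes; triangles, start sites. H3K27ac fills the shaded region in the 4 Fast lists only, H3K9ac enters it only at Npy2r (1 Fed and 1 Fast list), and the region lies before the gene at Npy2r and Scn2b and after it at Plekhb1.

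At Npy2r (chr3:82538383-82548989, minus strand, 10607 bp) the region was chr3:82549809-82550689, 881 bp wide. It lay 820 bp beyond the 5' end of the gene and overlapped no annotated gene. The annotated start site, at 82548085, lies inside that end, so the peaks of the region were 1724 to 1921 bp from the start. The peak was 671 bp wide with a score of 166.2 in Fast 1 (-Tetra), 866 bp with 160.52 in Fast 2 (-Tetra), 659 bp with 318.68 in Fast 1 (+Tetra), and 344 bp with 54.38 in Fast 2 (+Tetra). The score is the authors' value for a peak, its unit is not stated, and it is at least 50 in every list, so it is best read by its rank within a list. The 4 peaks stood at percentiles 68.6, 46.2, 71.9 and 4.64 of their own lists. Fast 2 (+Tetra) was low, near the smallest score its list holds, and the other 3 were mid-ranked.

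The Npy2r peak also sat at the edge of the 1 kb limit. The 3 higher peaks lay 881, 835 and 820 bp from the gene end, inside it, and the weak peak of Fast 2 (+Tetra) lay 1017 bp away, just outside it. That list met the rule through another peak, chr3:82548066-82549105, which covers the annotated start site and had a score of 91.69 (percentile 28). Fast 2 (-Tetra) had a peak over the start as well (chr3:82547565-82549294, percentile 40.1), while Fast 1 (-Tetra) and Fast 1 (+Tetra) had none there. So the shared upstream region was in 4 Fast lists and the start region in 2.

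No Fed list had any H3K27ac peak within 50 kb of Npy2r. From the upstream region, the nearest H3K27ac peak of a Fed list was 182920 to 191672 bp away. Over all genes, 59 of 21887 (0.270%) had H3K27ac within 50 kb in all 4 Fast lists but in no Fed list. Npy2r was chosen on such a pattern at its ends, so this share does not measure how unusual its window is. Npy, which encodes one of the receptor's ligands, was another of the 59. Npy itself had no peak of either mark within 1 kb of its ends in any list. The Npy2r window contained no other annotated gene: the nearest were the long noncoding RNA gene Gm29999, 111532 bp from Npy2r, and Map9, which encodes a microtubule-associated protein, 143115 bp from it.

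At Plekhb1 (chr7:100643896-100662394, minus strand, 18499 bp) the region was chr7:100642346-100643319, 974 bp wide. It lay 577 bp beyond the 3' end, in the gap between Plekhb1 and Rab6a, and overlapped no gene. The peak was 652 bp wide with a score of 179.69 in Fast 1 (-Tetra), 974 bp with 206.36 in Fast 2 (-Tetra), 678 bp with 227.23 in Fast 1 (+Tetra), and 579 bp with 111.16 in Fast 2 (+Tetra). Their percentiles were 71.5, 52.6, 64.7 and 35.3. Fast 2 (+Tetra) again ranked lowest of the 4.

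The Plekhb1 peaks lay 577 to 850 bp from the 3' end, and 13646 to 13919 bp from the nearer start site of the gene. The 3' end of Rab6a, which encodes a small GTPase of Golgi traffic, was 1078 bp from the region, so it fell just outside the limit that Plekhb1 met. A peak on the 5' side, 772 bp before the upstream start, was present in only 2 lists, Fast 1 (-Tetra) at percentile 35.3 and Fast 1 (+Tetra) at percentile 39.2. No Fed list had H3K27ac at either place, and the nearest H3K27ac peak of a Fed list was 23081 to 34072 bp from the 3' region.

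At Scn2b (chr9:45117876-45130070, plus strand, 12195 bp) the region was chr9:45116562-45117731, 1170 bp wide. It ended 145 bp before the start site and lay inside Gm10684, a long noncoding RNA gene on the opposite strand. The peak was 927 bp wide with a score of 214.97 in Fast 1 (-Tetra), 910 bp with 315.78 in Fast 2 (-Tetra), 875 bp with 96.49 in Fast 1 (+Tetra), and 930 bp with 130.9 in Fast 2 (+Tetra). Their percentiles were 75.3, 62.6, 37.6 and 41.1. By percentile Fast 1 (-Tetra) stood highest and Fast 1 (+Tetra) lowest, in lists of different lengths. By score Fast 2 (-Tetra) was highest. The 4 widths were nearly equal.

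The Scn2b peaks lay 145 to 385 bp from the start, closer than the shared regions at the other two. Unlike those, the locus carried H3K27ac close by in Fed lists: the nearest Fed peak was 3966 to 10016 bp from the region. Within the gene body, chr9:45120356-45123268 was marked in 4 Fast and 3 Fed lists, missing only Fed 1 (+Tetra). Beyond the 3' end, chr9:45132568-45134632 was marked in all 8.

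Among the 21 genes with the 4 Fast and 0 Fed pattern, the order of the median score was Fgfr4 first (210.6), then Plekhb1 (193.0), Scn2b (172.9), Npy2r (163.4) and Hcar2 (158.6). The lowest was Tnfrsf19 at 71.7. Just outside the pattern were 84 genes with 3 Fast and 0 Fed lists, and 79 with 4 Fast lists and 1 Fed list. Ptprc, the pan-leukocyte gene that encodes CD45, was also one of the 21.

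**Figure D2:**
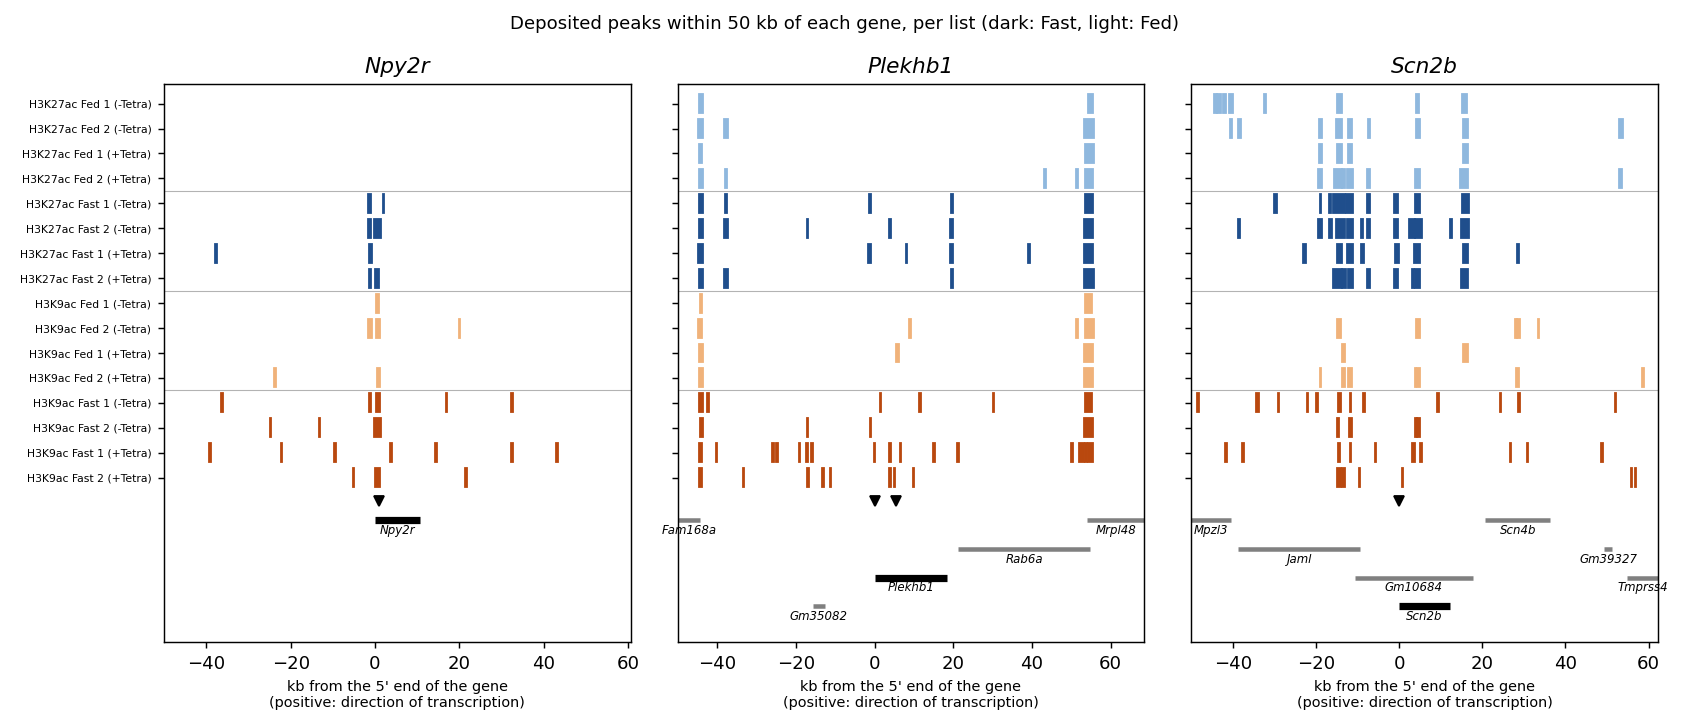
All deposited peaks within 50 kb of Npy2r, Plekhb1 and Scn2b; x, distance in kb from the 5' end of the gene, positive in the direction of transcription; rows, the 16 peak lists; blue, H3K27ac; orange, H3K9ac; dark, Fast; light, Fed; bars below, genes (member in black); triangles, start sites; peaks too narrow to see are widened. The Npy2r panel has no H3K27ac in Fed lists, whereas the Plekhb1 and Scn2b panels have regions shared by all 8 H3K27ac lists at neighbouring genes, and the Fast H3K9ac lists carry many narrow peaks seen in 1 list each.

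The 4 H3K27ac regions marked in all 8 lists, 2 in the Plekhb1 window and 2 in the Scn2b window, overlapped neighbouring genes. In the Plekhb1 window, Rab6a and Mrpl48 (a mitochondrial ribosomal protein) share a start region, chr7:100606659-100609156, that was marked by H3K27ac in all 8 lists at percentiles from 87.9 to 97.7. H3K9ac covered the same place in 7 of 8 lists, missing Fast 2 (+Tetra). The start of Fam168a was marked in all 8 lists for both marks. Gm35082, a long noncoding RNA gene, had no H3K27ac peak at its ends in any list, and H3K9ac in 2 Fast and 0 Fed lists.

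In the Scn2b window, a region within Jaml, which encodes an adhesion molecule of leukocytes and epithelium, was marked by H3K27ac in all 8 lists (chr9:45101915-45106855, percentiles 68.6 to 91.3). At the ends of Jaml, H3K27ac was in 2 Fast lists and 1 Fed list, while H3K9ac was in 3 Fast lists and in no Fed list. Gm10684 had H3K27ac at an end in 4 Fast and 3 Fed lists. Scn4b, the gene of another sodium channel auxiliary subunit and a close neighbour of Scn2b (8554 bp away), had no peak of either mark at its ends in any list. Mpzl3 carried H3K27ac in 3 Fast and in 4 Fed lists, and Tmprss4, a membrane serine protease, in 4 and 4. Gm39327 had no H3K27ac, and H3K9ac in 2 Fast and 0 Fed lists.

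**Figure D3:**
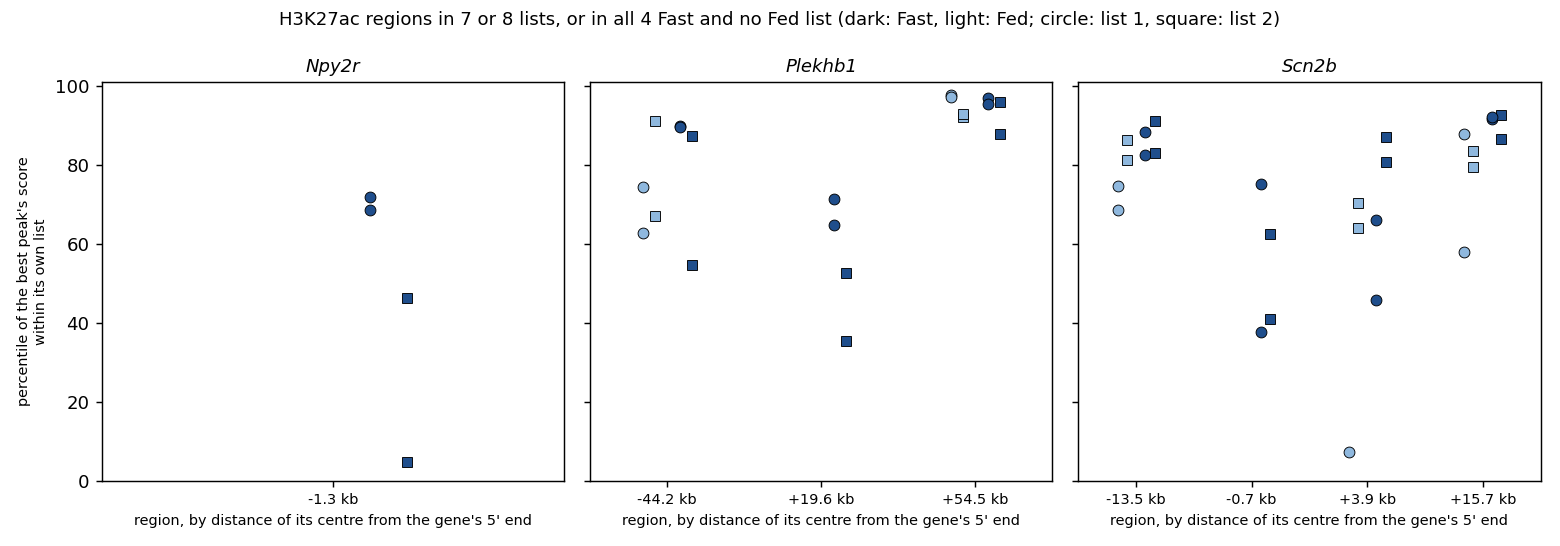
Rank of H3K27ac regions at the 3 loci; x, region by the distance of its centre from the gene's 5' end, in kb; y, percentile of its highest score within its own list; dark blue, Fast; light blue, Fed; circle, list 1; square, list 2. The regions found in all 4 Fast and no Fed list (the single region shown at Npy2r, the middle one at Plekhb1 and the second from the left at Scn2b) stand between percentiles 4.64 and 75.3, while the Rab6a and Mrpl48 start region stands between 87.9 and 97.7.

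Those ranks place the members' own regions in the middle of their lists. The highest of the 12 peaks in the 3 selecting regions stood at percentile 75.3 (Scn2b, Fast 1 (-Tetra)), and the lowest at 4.64 (Npy2r, Fast 2 (+Tetra)). Percentiles in lists of different lengths are not compared between Fed and Fast.

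H3K27ac covered length is the number of base pairs under peaks within 50 kb of the gene. It includes the peaks that the members were chosen on, so it is not separate support. At Npy2r it was 0 bp in the 4 Fed lists, and 871, 2596, 1218 and 1384 bp in Fast 1 (-Tetra), Fast 2 (-Tetra), Fast 1 (+Tetra) and Fast 2 (+Tetra). At Plekhb1 the Fed lists held 2342, 4387, 2926 and 4618 bp in the same order of list and tetracycline, and the Fast lists 4699, 6094, 5641 and 4879 bp. At Plekhb1 the lowest Fast list was above the highest Fed list by a small margin. At Scn2b the Fed lists held 7085, 8151, 4078 and 9103 bp and the Fast lists 10596, 13007, 7928 and 9310 bp, and here the groups overlapped.

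As a description, mean covered length was higher in Fast by 1517 bp at Npy2r (1517 ± 750 against 0 bp, SD, n = 4 lists each). It was higher by 1760 bp at Plekhb1 (5328 ± 654 against 3568 ± 1109 bp) and by 3106 bp at Scn2b (10210 ± 2159 against 7104 ± 2179 bp). Over all genes with any H3K27ac in the window, the same difference had a median of 536 bp and was above 0 for 79.9% of genes. Longer coverage in the Fast lists was common across the genome.

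**Figure D4:**
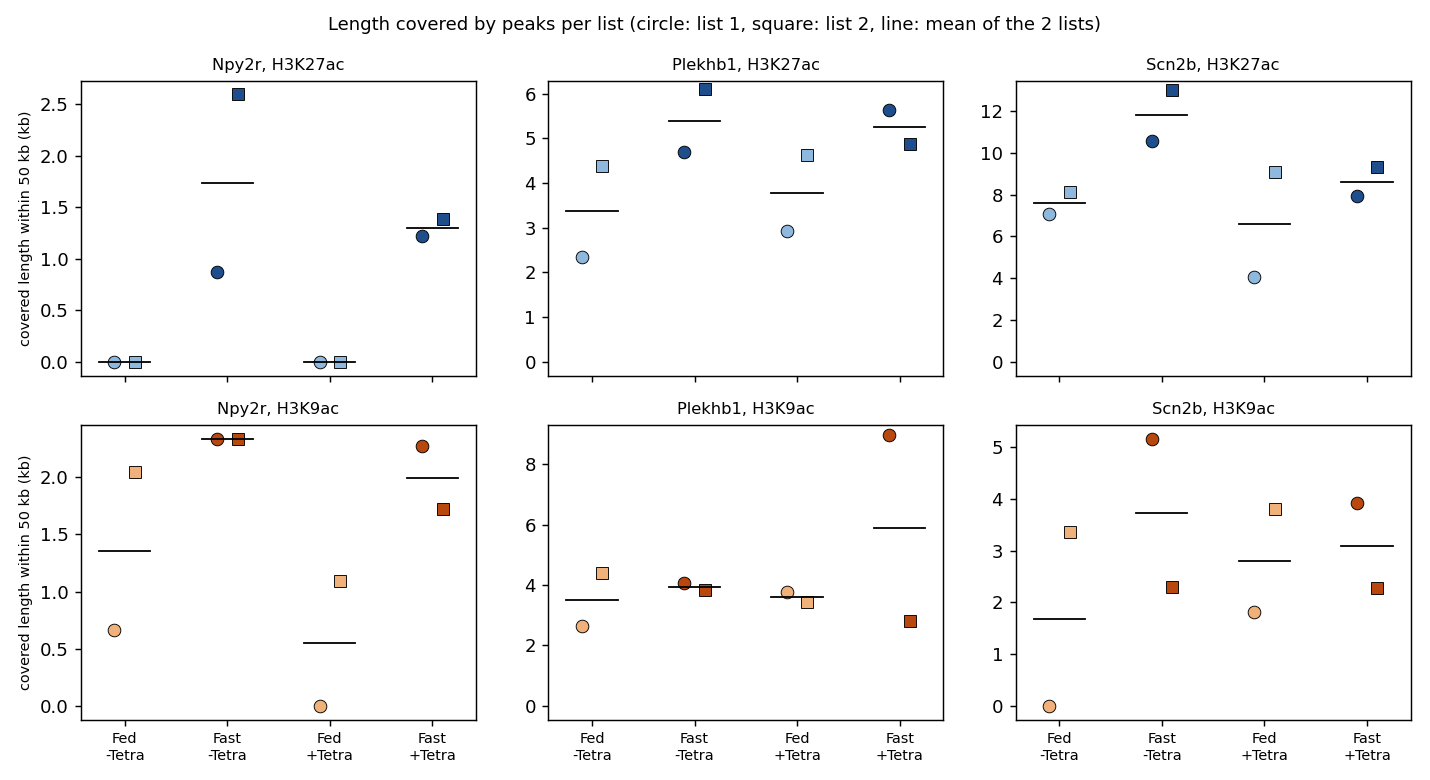
Length covered by peaks within 50 kb of Npy2r, Plekhb1 and Scn2b, in kb, for each of the 16 peak lists; top, H3K27ac; bottom, H3K9ac; x, the 4 groups; circle, list 1; square, list 2; line, mean of the 2 lists; dark, Fast; light, Fed. H3K27ac at Npy2r is at 0 in every Fed list, and H3K9ac is more scattered, with 1 list, Fast 1 (+Tetra), standing high at Plekhb1.

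H3K9ac did not repeat the H3K27ac pattern at any of the 3 genes. Within 1 kb of a gene end, Npy2r had H3K9ac in 3 Fast and 3 Fed lists, Plekhb1 in 2 Fast and 0 Fed lists, and Scn2b in 1 Fast and 0 Fed lists. Over all genes, 17 (0.0777%) had H3K9ac in all 4 Fast lists but no Fed list, and none of the 3 was among them. The reverse pattern was found for 9 genes with H3K9ac and for 3 with H3K27ac. With every H3K9ac list reduced to the same number of peaks, 0 genes had the Fast pattern and 124 the reverse, and with the upper 0.5 by score 6 and 37. The looser pattern of at least 1 Fast and no Fed list, which Plekhb1 and Scn2b met, was found for 14.0% of genes.

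At Npy2r the H3K9ac peak lay over the start site, except in Fed 1 (-Tetra), where it lay 70 bp from it. It was present in Fed 1 (-Tetra) at percentile 40.4, in Fed 2 (-Tetra) at 85.1 and in Fed 2 (+Tetra) at 73.5. In Fast lists it was present in Fast 1 (-Tetra) at 68, Fast 2 (-Tetra) at 90.8 and Fast 2 (+Tetra) at 88.7. Fed 1 (+Tetra) and Fast 1 (+Tetra) had none. Over the Npy2r start or within 70 bp of it, H3K9ac was therefore in 3 lists of each feeding state. H3K27ac over the same start was found in 2 Fast lists and no Fed list. In the upstream H3K27ac region, H3K9ac was present in 1 Fed list (Fed 2 (-Tetra), percentile 66.8) and 1 Fast list (Fast 1 (-Tetra), percentile 64.8).

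The H3K9ac peaks within 1 kb of the ends of Plekhb1 and Scn2b were weak and narrow. Plekhb1 had a 384 bp peak at percentile 4.85 in Fast 2 (-Tetra) and a 391 bp peak at percentile 6.71 in Fast 1 (+Tetra), both on the 5' side. Scn2b had a 200 bp peak at percentile 3.1 in Fast 2 (+Tetra), within the gene. Counted at start sites, Plekhb1 had H3K9ac in 3 Fast lists and 1 Fed list. Around its inner start lay a 619 bp peak at percentile 47.5 in Fed 1 (+Tetra), 70 bp from it, and a 200 bp peak at percentile 62.4 in Fast 2 (+Tetra), 323 bp from it. Farther inside Scn2b, more than 1 kb from its ends, H3K9ac region chr9:45120876-45122849 was in 2 Fast and 2 Fed lists. The regions beyond the Plekhb1 3' end and before the Scn2b start had no H3K9ac in any of the 8 lists.

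Within 50 kb of Npy2r, H3K9ac covered 663, 2050, 0 and 1096 bp in Fed 1 (-Tetra), Fed 2 (-Tetra), Fed 1 (+Tetra) and Fed 2 (+Tetra), and 2340, 2338, 2271 and 1722 bp in the Fast lists in the same order. Fast 2 (+Tetra) lay below Fed 2 (-Tetra), so the groups overlapped when tetracycline was ignored. Within each tetracycline state every Fast list was above every Fed list. The mean was 2168 ± 299 bp in Fast and 952 ± 859 bp in Fed (SD, n = 4 lists each), a difference of 1216 bp with a two-sided exact permutation p of 0.056, the smallest that the 36 arrangements allow, and an adjusted p of 0.86. This design cannot pass 0.05 for a single gene. Of 21400 genes tested, 5.50% reached the smallest p with Fast higher and 0.439% with Fed higher, so Npy2r was 1 of 1178 genes with Fast higher at that p.

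At Plekhb1, H3K9ac covered 2638, 4402, 3756 and 3448 bp in the Fed lists and 4075, 3823, 8983 and 2801 bp in the Fast lists. The list Fast 1 (+Tetra) was far above the other 7. The difference of 1360 bp (4920 ± 2764 against 3561 ± 733 bp, n = 4 lists each) had an exact permutation p of 0.56, two-sided (adjusted 0.88), and turned to -613 bp without the lists numbered 1, which include it. At Scn2b the Fed lists held 0, 3350, 1809 and 3793 bp and the Fast lists 5163, 2293, 3914 and 2274 bp. The difference of 1173 bp (3411 ± 1398 against 2238 ± 1717 bp, n = 4 lists each) had an exact permutation p of 0.39, two-sided (adjusted 0.86), and turned to -1288 bp without the lists numbered 1. Over all genes the median difference was 501 bp, and 75.7% of genes were above 0.

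Much of the H3K9ac coverage came from peaks seen once. At Npy2r, 14 of 17 H3K9ac regions were in a single list, 12 of them in a Fast list. At Plekhb1 it was 23 of 27, with 20 in a Fast list, and at Scn2b 24 of 29, with 20 in a Fast list. Of the 4 Fast H3K9ac lists, 3 held many peaks of 200 bp, the narrowest width reported: 17.2% in Fast 1 (-Tetra), 20.3% in Fast 1 (+Tetra) and 31.2% in Fast 2 (+Tetra). The share was 1.31% in Fast 2 (-Tetra) and at most 1.73% in the Fed H3K9ac lists. Of the H3K27ac lists, Fast 1 (-Tetra) had 11.8%. The part of the 200 bp peaks in the covered lengths was not tested. Leaving out all peaks under 500 bp, which also removes many wider ones, gave a Fast minus Fed difference in H3K9ac of 228 bp at Npy2r, -128 bp at Plekhb1 and -193 bp at Scn2b. H3K27ac marking at the gene ends stayed in 4 Fast lists for all 3 genes. Its 0 Fed lists could not change, because the members were chosen without Fed peaks there and removing peaks cannot add one.

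Lists also differed in length. H3K27ac lists held 32392 to 68545 peaks on chromosomes 1 to 19, X and Y, and H3K9ac lists 17249 to 99050. With every list of a mark reduced to the same number of its highest scores, the H3K27ac gene-end pattern was 4 Fast and 0 Fed lists at Npy2r and Plekhb1 and 3 and 0 at Scn2b. Cutting lists only removes peaks, so the 0 Fed lists were fixed by the choice of members. H3K9ac was then in 2 Fast and 3 Fed lists at Npy2r and in no list at Plekhb1 and Scn2b.

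**Figure D5:**
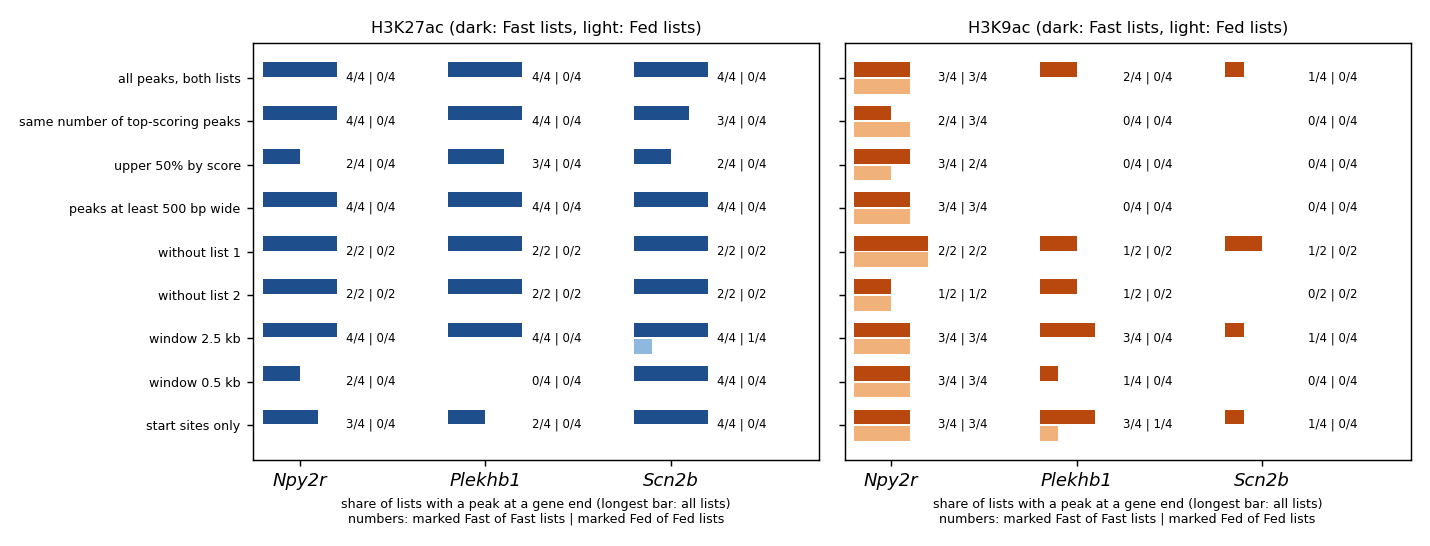
Lists with a peak at a gene end of Npy2r, Plekhb1 or Scn2b under each way of counting; rows, settings; bar length, share of lists marked; dark upper bar, Fast; light lower bar, Fed; numbers, marked lists of all Fast lists and of all Fed lists; left, H3K27ac; right, H3K9ac. With a limit of 0.5 kb H3K27ac is left in 2 Fast lists at Npy2r, none at Plekhb1 and 4 at Scn2b, and 1 Fed list joins at Scn2b with 2.5 kb.

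How the gene end was defined changed the members in different ways. With a limit of 0.5 kb, H3K27ac was in 2 Fast lists at Npy2r, 0 at Plekhb1 and 4 at Scn2b. Counted at annotated start sites only, it was in 3, 2 and 4 Fast lists, in that order, and in no Fed list. The 3 at Npy2r included Fast 1 (-Tetra), through a 200 bp peak inside the gene, 993 bp from the start. Scn2b was thus the only member with the full pattern at its start site, and the only one that kept it at 0.5 kb. With a limit of 2.5 kb, Scn2b gained 1 Fed list. With only the upper 50% of each list by score (an upper share of 0.5), H3K27ac was in 2 Fast lists at Npy2r, 3 at Plekhb1 and 2 at Scn2b, and in no Fed list. Neither fewer peaks nor the narrower limit of 0.5 kb can add a Fed list, so that absence was fixed by the choice of members.

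Tetracycline was compared within each feeding state. The gene-end H3K27ac of all 3 genes was in 2 +Tetra and 2 -Tetra lists, as the rule requires. Covered length includes those peaks, so for H3K27ac its tetracycline comparison is not fully separate from the choice of members. H3K27ac covered length at Npy2r was 650 ± 754 bp with tetracycline and 867 ± 1224 bp without (SD, n = 4 lists each), a difference of -216 bp (exact permutation p of 1, two-sided). At Plekhb1 it was 4516 ± 1145 against 4380 ± 1548 bp, a difference of 136 bp (exact permutation p of 0.83). At Scn2b it was 7605 ± 2429 against 9710 ± 2644 bp (SD, n = 4 lists each), a difference of -2105 bp (exact permutation p of 0.22). All 3 adjusted p were 1. The SD of lists within a group, pooled over the 4 groups, was 613 bp at Npy2r, 1094 bp at Plekhb1 and 2065 bp at Scn2b, so the differences at Npy2r and Plekhb1 were smaller than it and that at Scn2b was slightly larger.

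For all genes the tetracycline difference in H3K27ac covered length had a median of -309 bp, with 27.5% of 20152 genes above 0. The smallest p was reached by 0.328% of genes with +Tetra higher and by 3.17% with -Tetra higher, but not by Plekhb1 or Scn2b. Npy2r could not reach it. Its 4 Fed lists all held 0 bp, so relabelling them changes nothing and fewer arrangements differ. For H3K9ac the difference was -576 bp at Npy2r (1272 ± 975 against 1848 ± 801 bp, lower with tetracycline in 4 of 4 list pairings by number, exact permutation p of 0.22, two-sided). It was 1012 bp at Plekhb1 (4747 ± 2852 against 3734 ± 768 bp, exact permutation p of 0.78) and 246 bp at Scn2b (2948 ± 1064 against 2702 ± 2156 bp, exact permutation p of 0.83), with adjusted p of 1 for each. Among all genes, 0.799% reached the smallest p with +Tetra higher and 0.327% with -Tetra higher, and the median difference was 113 bp.

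The relatives of the 3 genes were counted in the same way. None of them had H3K27ac in all 4 Fast lists and no Fed list, which with 0.0959% of all genes showing that pattern says nothing about these families. Of 8 genes of neuropeptide Y signalling, only Dpp4, a peptidase that trims both ligands, had H3K27ac at its ends, in all 8 lists, and it had H3K9ac in all 8. Pyy, the gut hormone gene, had no H3K27ac in any list and H3K9ac in 2 Fast and 0 Fed lists, and Npy1r, another receptor, had H3K9ac in 1 Fast list. Of the 8, 3 had H3K9ac in more Fast lists (Pyy, Npy1r and Ppy, the last in 3 Fast and 0 Fed lists). Another 1 had it in more Fed lists (the receptor gene Npy4r, in 0 Fast lists and 1 Fed list), and 4 in equal numbers.

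Of 13 other sodium channel subunit genes, 12 had no H3K27ac at their ends in any list. H3K9ac was in more Fast than Fed lists for 3 of the 13, in more Fed lists for 0, and absent from all lists for 8. Over all genes, H3K9ac was in more Fast lists for 23.8%, in more Fed lists for 20.7% and in none for 25.2%, so the share with more Fast lists was near that of all genes. Among auxiliary subunit genes, Scn3b had H3K9ac in 1 Fast list and Scn4b in none.

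Of the 29 other Plekh genes, 21 had H3K27ac in equal numbers of Fast and Fed lists. H3K27ac was in all 8 lists for 16, in none for 4, in more Fast lists for 4 and in more Fed lists for 4. H3K9ac was in more Fast lists for 7, in more Fed lists for 11 and in equal numbers for 11. Over all genes H3K9ac was in more Fast lists for 23.8% and in more Fed lists for 20.7%, and no test was made. Plekhb2, the closest relative of Plekhb1 by name, had both marks in all 8 lists. Over all 21887 genes, 13.2% had H3K27ac in more Fast lists, 9.44% in more Fed lists, 33.6% in all 8 lists and 39.4% in none. The share of sodium channel and neuropeptide Y genes without H3K27ac (12 of 13 and 7 of 8) stood above that last value, with no test made.

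Genes whose marks most resembled each member were named by how many of the 16 lists (both marks) matched in presence or absence at a gene end. Tnfrsf19, a receptor of the tumour necrosis factor family, matched Npy2r in 15 of 16 lists, and Tut4 and Troap in 14. Olfr750, Hpd and Klf12 matched Plekhb1 in 15. Hcar2, a receptor for beta-hydroxybutyrate and niacin, Tmem248 and Gm41408 matched Scn2b in 15. For Scn2b 7 genes were tied at 15, and for Npy2r 7 at 14. Ties were broken by the closer median percentile of the H3K27ac gene-end peak in the Fast lists. Tnfrsf19, Olfr750, Klf12, Hcar2, Tmem248 and Gm41408 were themselves among the 21 genes with the selecting pattern, so their H3K27ac likeness is fixed by it.

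Since Npy2r and Scn2b are known from neurons, markers of other cells were counted in the same way, for H3K27ac unless H3K9ac is named. All 10 epithelial markers, among them Epcam, Cdh1, Vil1 and Cdx2, had H3K27ac in all 8 lists, as the label of intestinal epithelial cells would have it. Of 10 enteric neuron markers, 0 to 1 per Fast list and 1 to 2 per Fed list had H3K27ac. Ret was marked in 2 Fast and 4 Fed lists and Tubb3 in 1 Fed list, and Elavl3, Elavl4, Uchl1, Chat, Nos1, Vip and Snap25 had none. H3K27ac was absent from all lists for 8 of these 10 markers, against 39.4% of all genes. H3K9ac was absent from all lists for 2 of the 10, against 25.2% of all genes. Of 5 glial markers, 0 to 1 per list were marked in either state.

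Enteroendocrine cells, the hormone-making cells of the epithelium, had 2 to 3 of 10 markers with H3K27ac in Fast lists and 2 in Fed lists. Chga was marked in 3 Fast and 4 Fed lists and Sct in all 8, Neurod1 and Pax6 in 1 Fast list each, and Chgb, Neurog3, Isl1, Pyy, Gcg and Cck had no H3K27ac. H3K9ac was absent from all lists for 2 of these 10 markers, against 25.2% of all genes. Of 6 T cell markers, 2 to 5 were marked in Fast and 1 to 5 in Fed lists. Of 5 markers of other leukocytes, 3 were marked in every Fast list and 1 to 2 in Fed lists: Ptprc in 4 Fast and 0 Fed, Itgam in 4 and 2, Cd79a in 4 and 4, and Csf1r in none. Of 6 markers of mesenchyme and muscle, 0 to 1 were marked per list. The part of leukocytes in the H3K27ac peaks at Npy2r, Plekhb1 and Scn2b was not tested.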

How the data were processed

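H3K27ac and H3K9ac were measured by CUT&Tag, with 2 peak lists for each of 8 samples. One list of peaks was deposited for each library. It gives a position, a name that begins with MACS, and the authors' score, in a unit that the lists do not state. Per the submitters' processing notes the build was mm10 and the tools included FastQC, Bowtie and SAMtools. The caller's version and cutoff and the use of IgG libraries are not given in the sources used here. The names of the lists call them downsampled, no read totals are given, and the depth behind each list is unknown, so no interval that needs it is printed.

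Peaks on chromosomes 1 to 19, X and Y were used, with coordinates written from 1. Genes, strands, start sites and promoter sequences came from RefSeq tables for GRCm38.p6, the assembly of mm10. All 3 members matched by symbol, with 4 promoter windows. A gene counted as marked if either of its ends had a peak no more than 1 kb away. Peaks of the 8 lists of a mark that shared at least 1 bp were merged into regions. Percentiles rank a peak's score within its own list. Covered length was compared by a two-sided exact permutation test of list labels within strata (tetracycline state for feeding, feeding state for tetracycline; 36 arrangements, smallest p 0.056), run for every gene with any peak of the mark in its window, with Benjamini-Hochberg adjustment over all of them. The calculation was tested on simulated data. Python 3.11.15, numpy 2.4.6, pandas 2.3.3 and matplotlib 3.10.9 were used.

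The members and the gene lists were chosen with earlier results of these data known. Named genes were the members, all genes overlapping their windows, up to 3 genes most like each member, members of 3 families and the cell markers. Fgfr4, Map9, Gm29999 and Ppy were named after their values were seen. Some genes of the lists are counted but not reported by name here. Alternatives were another distance (0.5 or 2.5 kb), start sites only, other flanks (20 or 100 kb), an equal number of top scores, the upper 0.5 by score, peaks of at least 500 bp, the share of a list's covered length, list numbers as a block, and each list number left out.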

Additional observations from a re-analysis of the deposited data

How the results depend on the processing

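Of 120 values recomputed with both list numbers, 88 were classed as unchanged, 17 as moved and 15 as turned in sign. With 1 list number left out it was 29, 2 and 5 of 36. A marking percent was called moved beyond a change of 1.5 times. Unchanged does not mean a steady size: H3K9ac covered length at Npy2r, Fast minus Fed, went from 1216 to 194 bp with equal numbers of peaks. Some values could not change. These were the covered-length differences with list numbers as a block, and H3K27ac gene-end marking with a list number left out. Gene-end marking is given here as the percent of Fast minus the percent of Fed lists, where H3K27ac was 100 for each gene and H3K9ac was 0 for Npy2r, 50 for Plekhb1 and 25 for Scn2b. H3K27ac moved to 50 for Npy2r and Scn2b with the upper 0.5 by score, to 50 for Npy2r and 0 for Plekhb1 at 0.5 kb, and to 50 for Plekhb1 at start sites only. H3K9ac moved to -25, 0 and 0 (Npy2r, Plekhb1, Scn2b) with equal numbers of peaks, to 25, 0 and 0 with the upper 0.5, to 0 for Plekhb1 and Scn2b with peaks of at least 500 bp, and to 25 for Plekhb1 and 0 for Scn2b at 0.5 kb. Leaving out list numbers gave 0 to 50 for Scn2b.

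For H3K27ac covered length in Fast minus Fed, the difference was 522 bp at Npy2r with the upper 0.5 and 6534 bp at Scn2b with 100 kb, and ranged from 1044 to 1990 bp at Npy2r, 984 to 2536 bp at Plekhb1 and 2532 to 3680 bp at Scn2b with a list number left out. For H3K9ac in Fast minus Fed, it turned to -950 bp at Plekhb1 and -483 bp at Scn2b with equal numbers of peaks, to -358 bp at Scn2b with the upper 0.5, to -128 and -193 bp at Plekhb1 and Scn2b with peaks of at least 500 bp, and to -7.29 ppm of the list's covered length at Plekhb1. It ranged from -613 to 3332 bp at Plekhb1, -1288 to 3634 bp at Scn2b and 457 to 1974 bp at Npy2r with a list number left out. At Npy2r it was above 0 under every alternative run, between 194 bp (equal numbers of peaks) and 1974 bp (without the lists numbered 2). For tetracycline and H3K27ac, the difference turned to 130 bp at Npy2r and -334 bp at Plekhb1 with equal numbers, to 86.8 and -479 bp with the upper 0.5, and to -179 bp at Plekhb1 with 20 kb, and ranged from -606 to 174 bp at Npy2r and -492 to 763 bp at Plekhb1 with a list number left out. For tetracycline and H3K9ac, it turned to -569 bp at Plekhb1 and -262 bp at Scn2b with equal numbers, to -49.2 and -215 bp at Scn2b with the upper 0.5 and with peaks of at least 500 bp, and ranged from -988 to 3013 bp at Plekhb1. The cause was not tested.

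With list numbers as a block the differences are the same by construction, and the exact permutation p at Npy2r for H3K9ac was 0.12, the smallest that 4 pairs allow; list numbers come only from the names of the lists and are not known to pair mice. The number of genes with H3K27ac in all Fast and no Fed lists, 21 with 3 in reverse, was 12 with 5 in reverse at start sites only, 21 with 18 at equal numbers of peaks, and 92 with 212 or 500 with 56 when lists numbered 1 or 2 were left out. For H3K9ac, 17 with 9 in reverse became 10 with 17 for peaks of at least 500 bp, 44 with 7 at 2.5 kb, and 155 with 627 or 893 with 146 without lists 1 or 2. The smallest p was above 0.05 under each alternative run. The number of lists and their unknown depth limit what these data can show.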
